A study of Mus musculus with 16 samples.

Results

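The treatment by genotype interaction in mouse white adipose tissue (WAT) was measured in 8 RNA-seq libraries of 16 in the series, all of its WAT libraries, chosen by their tissue label. It asks whether the change with NOX_6_18, described in the series as an antagonist of the receptor GPR132, differed between mice whose myeloid cells carry Cre recombinase and mice without Cre. For each gene it is the log2 fold change of NOX_6_18 over vehicle in CKO mice minus the same fold change in fl/fl mice. The other 8 libraries are from liver and serve only for comparison.

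There were 4 WAT groups of 2 libraries. CKO NOX_6_18 and CKO vehicle came from mice of genotype Lyz2_cre+/_GPR132fl/fl, in which Cre is driven by the myeloid gene Lyz2; fl/fl NOX_6_18 and fl/fl vehicle came from GPR132fl/fl mice, so all 4 groups carry the floxed Gpr132 allele. All mice were C57BL/6, on a diet written as HFD. The labels name no sex, age, dose or length of treatment. They also do not say whether paired libraries come from separate mice, so every p-value here reflects only how far the 2 libraries of a group differ, and that difference may be technical.

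GPR132 is a G protein-coupled receptor of myeloid cells and lymphocytes that belongs to a small family of proton-sensing receptors, responds to oxidized fatty acids and lactate, and couples to G proteins that activate the small GTPase RhoA. Macrophages of obese adipose tissue gather around dying adipocytes, take up their lipid and switch on lysosomal and lipid-handling genes, a state named lipid-associated macrophages and marked by Trem2, Gpnmb and Cd9. Fat depots also hold adipocytes, fibroblast-like progenitors, endothelial cells and other leukocytes, and the epididymal depot lies against the epididymis and testis.

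The libraries held 48348395 to 58396991 counts. The fl/fl vehicle pair stood apart from the other 6. Genes with at least 1 count numbered 30393 to 31289 in the 6 and 25039 to 25702 in fl/fl vehicle, and mitochondrially encoded genes took 3.21% to 3.61% of counts in the 6 and 2.31% to 2.73% in fl/fl vehicle. The first principal component (72.2% of the variance) put the 6 between -75.5 and -72.2 and the fl/fl vehicle pair at 226 and 220. The labels name RNA from macrophages but describe frozen tissue. Markers of macrophages summed to 8564 to 9023 CPM (counts scaled to library size) in the 6 libraries and 11914 to 13098 in fl/fl vehicle, and markers of other cells were also present: 15 endothelial markers summed to 2804 to 2945 CPM in the 6 and 3878 to 4007 in fl/fl vehicle, and 17 adipocyte markers to 847 to 907 CPM in the 6 and 824 to 848 in fl/fl vehicle. In such bulk RNA, fewer cells of a type and less RNA per cell cannot be told apart.

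Gpr132 itself (ENSMUSG00000021298, GRCm38 chr12:112850873-112868228, minus strand) had 56.5 and 59.1 CPM in CKO NOX_6_18, 35.6 and 64.6 in CKO vehicle, 60.3 and 60.1 in fl/fl NOX_6_18 and 72.5 and 69.7 in fl/fl vehicle. Fl/fl vehicle was highest, CKO vehicle was spread over most of the range, and both CKO NOX_6_18 libraries lay just under fl/fl NOX_6_18. The interaction was 0.45 ± 0.32 on the log2 scale (SE; adjusted p = 0.357, edgeR quasi-likelihood test with Benjamini-Hochberg adjustment, as for all adjusted p-values here unless another tool is named). Leaving out CKO vehicle replicate 2 gave 0.93 and a pass (adjusted p = 0.00196), while leaving out its partner, replicate 1, gave 0.08 (adjusted p = 0.72). Removing trends with gene length and GC content gave 1.08 (adjusted p = 0.0232). The Gpr132 count therefore did not separate CKO from fl/fl libraries, and the labels do not say which exons are floxed, so a count over the whole gene may miss the deletion. CKO below means the libraries labelled so.

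Over 25871 genes tested, 6547 (25.3%) were called in the interaction at an adjusted p under 0.05, and 9525 had an unadjusted p under 0.05. Of these calls 1737 (6.71% of genes tested) were higher and 4810 (18.6%) lower in CKO than in fl/fl mice in their response to NOX_6_18, and the median over all genes was -0.11. Changes of at least 2-fold were far more often downward, 216 higher and 4170 lower. The split depended on scaling. Scaled by library totals alone, 789 genes were higher and 5517 lower, with the median of all genes moved by -0.16. With GC and length trends removed it was 8408 higher and 3870 lower and the median moved by 0.52.

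Most of the interaction sat in a single group. In 1662 of the 1737 genes called higher (95.7%) both fl/fl vehicle libraries lay above all 6 others, as they did in 20.8% of all genes tested, and in 4719 of the 4810 called lower (98.1%) both lay below, as in 30.5% of all genes tested. In CKO mice the median change with NOX_6_18 was 0.02 for the genes called higher and -0.04 for those called lower, and in fl/fl mice it was -0.54 and 4.35. Over all genes tested the medians were 0.0 in CKO and 0.12 in fl/fl mice. The absolute log2 change in CKO was under 0.5 for 96.4% of genes called higher, 84.3% of those called lower and 80.2% of all tested. Being flat in CKO was thus common to most genes. A called interaction therefore mostly recorded that NOX_6_18 and vehicle libraries were alike in CKO and unlike in fl/fl mice. Called singly, the NOX_6_18 contrast passed for 4 genes in CKO (0.0155% of genes tested), 1 higher (0.00387%) and 3 lower (0.0116%). In fl/fl it passed for 9784 (37.8%), 6373 higher (24.6%) and 3411 lower (13.2%). The contrast of CKO over fl/fl passed for 9 genes on NOX_6_18 (0.0348%), 4 higher (0.0155%) and 5 lower (0.0193%), and for 9529 on vehicle (36.8%), 6313 higher (24.4%) and 3216 lower (12.4%). The split of the fl/fl and the vehicle contrasts turned with GC and length trends removed. It was then 4628 higher and 10457 lower for NOX_6_18 in fl/fl, and 4641 higher and 10404 lower for CKO over fl/fl on vehicle. These contrasts share libraries with the interaction and with each other, and are given side by side only.

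**Figure D1:**
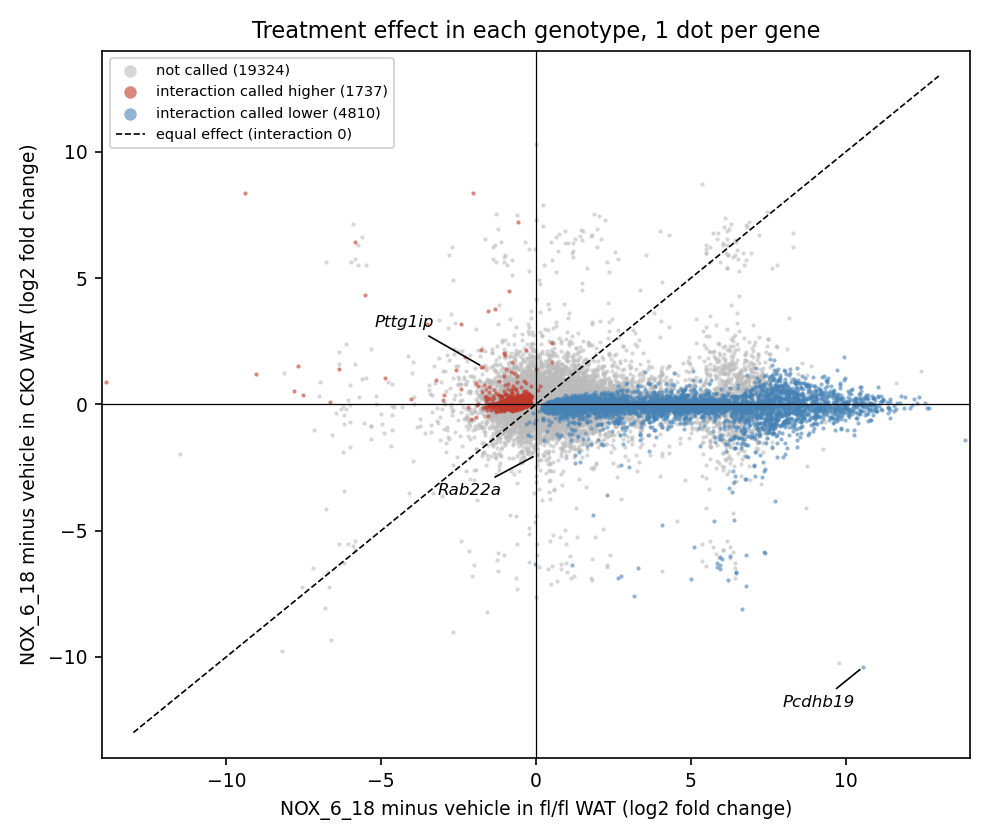
Log2 fold change of NOX_6_18 over vehicle in CKO WAT (vertical axis) against the same in fl/fl WAT (horizontal axis), 1 dot per gene tested, with the 1737 genes called higher and the 4810 called lower in the interaction in colour. Most coloured dots lie along the horizontal axis, near 0 in CKO, and Pttg1ip, Rab22a and Pcdhb19 depart from it. Fl/fl vehicle held 0 counts in both libraries for 1305 of the genes called lower, whose fitted values depend on the prior count.

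Genes called higher and lower also differed in kind. Those called higher were 96.3% protein-coding with a median exon length of 4434 bases and took 27.3% to 27.9% of CPM in the 6 libraries and 40.9% and 40.5% in fl/fl vehicle. Those called lower were 71.3% protein-coding with a median exon length of 2474 bases, and took 11.8% to 12.4% of CPM in the 6 libraries and 6.2% and 5.8% in fl/fl vehicle. Of lincRNA genes, 30.3% were called lower and 0.516% higher. Across 5 equal groups by exon length the share called higher was 1.3% in the shortest and 10.2% in the longest, and the median interaction -0.68 and 0.04; the part of length in the calls was not tested beyond the adjusted fit above.

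**Figure D2:**
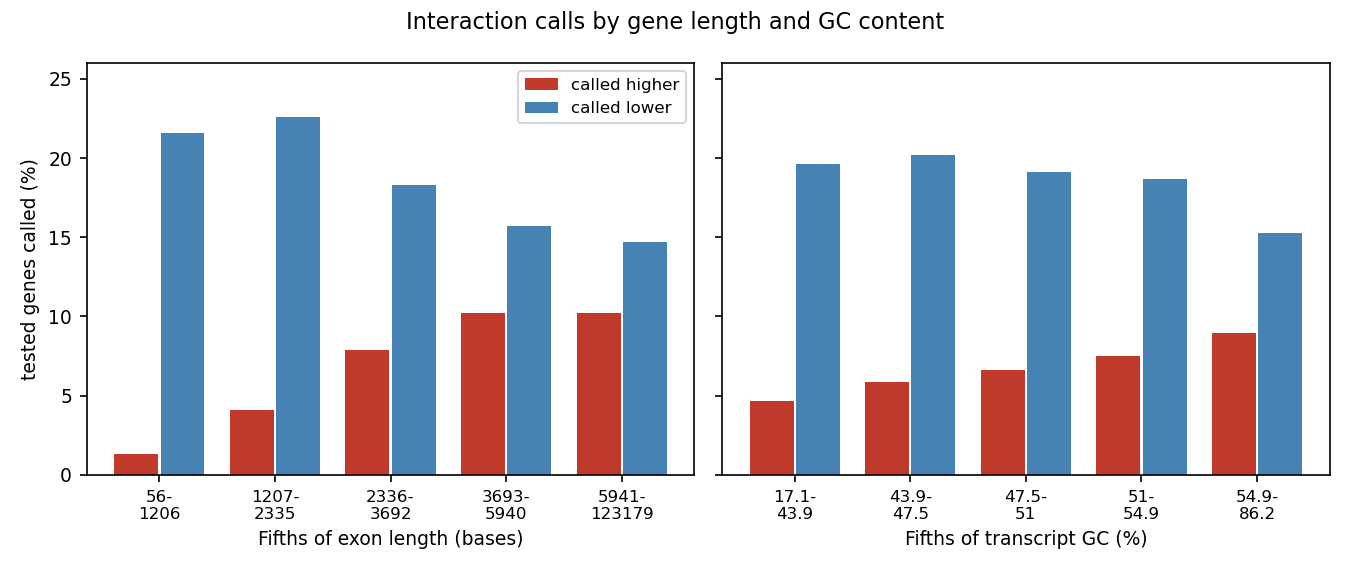
Share of tested genes called higher or lower in the interaction (bars, %) in 5 equal groups by summed exon length (left, bases) and by transcript GC (right, %). Calls of higher genes were most frequent in long, GC-rich genes (10.2% and 8.98% in the top groups), and calls of lower genes least frequent there (14.7% and 15.3%).

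Gpr4 and Gpr65 are related proton-sensing receptors. Gpr4, an endothelial pH sensor, had 16.8 and 18.5 CPM in CKO NOX_6_18, 18.2 and 17.9 in CKO vehicle, 16.7 and 18.4 in fl/fl NOX_6_18 and 27.0 and 24.3 in fl/fl vehicle. The fl/fl vehicle pair alone was high. Its interaction was 0.52 ± 0.16 (adjusted p = 0.0448), and it was not called without any 1 of 7 libraries (adjusted p up to 0.16). Gpr65, a lymphocyte and myeloid acid sensor, gave 0.31 ± 0.12 (adjusted p = 0.0948), and did not pass. With GC and length trends removed Gpr132, Gpr4 and Gpr65 passed as higher.

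Of 11 genes of G12/13 and arrestin signalling, 4 were called higher and 0 lower, with a list median of 0.24, which was 0.35 above that of all genes. Gna12, an alpha subunit upstream of RhoA, had 140 and 152 CPM in CKO NOX_6_18, 150 and 146 in CKO vehicle, 147 and 148 in fl/fl NOX_6_18 and 233 and 216 in fl/fl vehicle. That is an interaction of 0.58 ± 0.10 (adjusted p = 0.00327), again with fl/fl vehicle alone apart. The calls for Gna13 and Rhoa were lost without any 1 of 5 and 6 libraries.

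Of enzymes that make or clear oxidized lipids 3 of 16 were called higher and 2 lower, beside 6.71% and 18.6% of all genes, with a median of 0.06 that was -0.11 with library totals only. Hpgds, which makes prostaglandin D2, had 43.7 and 51.4 CPM in CKO NOX_6_18, 47.2 and 46.1 in CKO vehicle, 49.0 and 47.0 in fl/fl NOX_6_18 and 102 and 97.4 in fl/fl vehicle (interaction 1.08 ± 0.13, adjusted p = 0.000484). Alox15, a lipoxygenase that oxidizes linoleate and arachidonate, had 41.1 and 40.7 CPM in CKO NOX_6_18, 41.9 and 43.5 in CKO vehicle, 41.1 and 37.9 in fl/fl NOX_6_18 and 24.8 and 20.4 in fl/fl vehicle (-0.87 ± 0.15, adjusted p = 0.00413). Fl/fl vehicle was thus high for Hpgds and low for Alox15, with no overlap with the 6 other libraries in either. The Alox15 value was -0.05 (adjusted p = 0.829) with GC and length trends removed. Pla2g15, the lysosomal phospholipase A2, and Tbxas1, thromboxane synthase, were higher by 0.81 ± 0.10 and 0.79 ± 0.11.

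Lipid-associated macrophage genes formed the macrophage list with the most calls: 19 of 20 were higher and 0 lower. The median was 1.00, which was 1.11 above all genes and 1.29 above them with GC and length trends removed. In CKO mice the median change with NOX_6_18 was -0.06 and in fl/fl mice it was -1.16. Gpnmb, a lysosomal glycoprotein of lipid-laden macrophages, had 455 and 506 CPM in CKO NOX_6_18, 467 and 456 in CKO vehicle, 503 and 493 in fl/fl NOX_6_18 and 1505 and 1473 in fl/fl vehicle. The 6 libraries lay within a narrow band and the fl/fl vehicle pair far above it, for an interaction of 1.64 ± 0.08 (adjusted p = 3.19e-06).

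Trem2, the lipid receptor that defines this state, had 65.5 and 65.3 CPM in CKO NOX_6_18, 74.2 and 78.7 in CKO vehicle, 59.9 and 66.1 in fl/fl NOX_6_18 and 183 and 167 in fl/fl vehicle (1.25 ± 0.12, adjusted p = 0.00011). Lpl, lipoprotein lipase, had 892 and 855 CPM in CKO NOX_6_18, 949 and 874 in CKO vehicle, 957 and 852 in fl/fl NOX_6_18 and 2492 and 2456 in fl/fl vehicle (1.39 ± 0.09, adjusted p = 1.59e-05). In both genes the 6 libraries lay close together and none came near fl/fl vehicle. Lipa, lysosomal acid lipase, followed the same order at 254 to 268 CPM in the 6 libraries and 620 and 618 in fl/fl vehicle (1.21 ± 0.07, adjusted p = 8.93e-06), and so did Ctsb, cathepsin B, at 2794 to 2913 and 5572 and 5271 CPM (0.91 ± 0.05, adjusted p = 7.94e-06).

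The exception was Apoe, the apolipoprotein of cholesterol export, with 1188 and 1238 CPM in CKO NOX_6_18, 1862 and 1792 in CKO vehicle, 1195 and 1262 in fl/fl NOX_6_18 and 1408 and 1921 in fl/fl vehicle. Both vehicle groups lay above both NOX_6_18 groups, so the interaction was -0.15 ± 0.17 (adjusted p = 0.575). Its change with NOX_6_18 was -0.59 in CKO (adjusted p = 1) and -0.44 in fl/fl (adjusted p = 0.0218). Fitted without the fl/fl vehicle group, the change in CKO was -0.59 ± 0.04 (adjusted p = 0.00915).

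Pan-macrophage markers gave 12 of 20 higher and 2 lower, with a median of 0.44 that was 0.55 above all genes. Adgre1, which encodes F4/80, had 359 and 370 CPM in CKO NOX_6_18, 362 and 372 in CKO vehicle, 360 and 369 in fl/fl NOX_6_18 and 629 and 608 in fl/fl vehicle (0.75 ± 0.07, adjusted p = 0.000129). Lyz2, the lysozyme gene whose promoter drives Cre in the CKO mice, had 2040 and 2022 CPM in CKO NOX_6_18, 2228 and 2054 in CKO vehicle, 2038 and 2026 in fl/fl NOX_6_18 and 3720 and 3353 in fl/fl vehicle (0.72 ± 0.08, adjusted p = 0.000345). For both genes fl/fl vehicle was apart from the rest.

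Not every macrophage marker followed, although with GC and length trends removed 18 of the 20 pan-macrophage markers were called higher and 0 lower. Cx3cr1, the fractalkine receptor, had 22.7 and 24.1 CPM in CKO NOX_6_18, 22.5 and 20.4 in CKO vehicle, 20.9 and 21.6 in fl/fl NOX_6_18 and 11.5 and 13.3 in fl/fl vehicle, the opposite order (-0.65 ± 0.16, adjusted p = 0.0202), as did Aif1, which encodes IBA1 (-0.64 ± 0.16, adjusted p = 0.0215). Itgam, which encodes CD11b, was set by CKO vehicle, at 347 and 214 CPM in CKO NOX_6_18, 115 and 101 in CKO vehicle, 338 and 223 in fl/fl NOX_6_18 and 337 and 229 in fl/fl vehicle. Its interaction was 1.40 ± 0.39 (adjusted p = 0.0335), and its spread within the NOX_6_18 and fl/fl vehicle pairs was wide. Mertk, an engulfment receptor, gave -0.16 (adjusted p = 0.422).

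Genes of resident or alternatively activated macrophages were called higher in 2 of 14 and lower in 4, and inflammatory cytokine and chemokine genes higher in 3 of 18 and lower in 2, with medians of 0.01 and 0.02 that were -0.16 and -0.14 with library totals only. Of all genes tested 6.71% were called higher and 18.6% lower. The resident list with GC and length trends removed gave 9 higher and 0 lower (median 0.85) and the inflammatory list 16 higher and 0 lower (median 1.31). Nos2, inducible nitric oxide synthase, had 12.2 and 13.1 CPM in CKO NOX_6_18, 10.5 and 12 in CKO vehicle, 10.3 and 11.4 in fl/fl NOX_6_18 and 22.5 and 22.0 in fl/fl vehicle (1.21 ± 0.17, adjusted p = 0.00128). Cxcl10, an interferon-induced chemokine, had 187 and 174 CPM in CKO NOX_6_18, 195 and 191 in CKO vehicle, 180 and 179 in fl/fl NOX_6_18 and 103 and 91.6 in fl/fl vehicle (-0.99 ± 0.11, adjusted p = 0.000257), but was 0.08 with GC and length trends removed. The chemokine Ccl8 was higher by 1.16 ± 0.14. Tnf, Il6 and Ccl2, classical products of inflammatory macrophages, did not pass (-0.23, -0.25 and -0.04; adjusted p of 0.245, 0.139 and 0.841). Of 10 MHC class II genes 2 were called higher (median 0.32), and Cd74, the invariant chain, gave 0.12 (adjusted p = 0.615).

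Lysosomal hydrolase and v-ATPase genes were called higher in 14 of 20 and lower in 0, and all 20 had both fl/fl vehicle libraries above the 6 others, against 20.8% of all genes tested. The median was 0.52, which was 0.63 above all genes and 0.70 above them with GC and length trends removed. Atp6v1b2, a subunit of the proton pump that acidifies lysosomes, had 166 and 165 CPM in CKO NOX_6_18, 177 and 161 in CKO vehicle, 160 and 163 in fl/fl NOX_6_18 and 346 and 331 in fl/fl vehicle (1.04 ± 0.09, adjusted p = 9.02e-05). Ctsd, cathepsin D, is a lysosomal protease gene that was counted in the lipid-associated macrophage list instead. It had 1107 and 1041 CPM in CKO NOX_6_18, 1185 and 1124 in CKO vehicle, 1114 and 1108 in fl/fl NOX_6_18 and 2484 and 2444 in fl/fl vehicle (1.05 ± 0.07, adjusted p = 1.22e-05). Fl/fl vehicle was apart from the rest in both.

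Many lysosomal genes carry a site for the transcription factor TFEB in their promoters, the CLEAR element, built around the E-box TCACGTGA, which is its own reverse complement. In RefSeq promoter windows of 250 bases before to 50 after each start (GRCm38.p6), these letters stood in 3 of 15 matched lysosomal genes (20%; Gla, Atp6v0d1 and Atp6v1a), in 1 of 14 lipid-associated macrophage genes (7.14%; Ctsd) and in 0 of 13 pan-macrophage markers, beside 1.12% of 27025 genes. The 150 bases before the start of Atp6v1a, a v-ATPase subunit, and of Ctsd are shown because both genes were called higher, with the E-box in capitals. Both lie on the minus strand, Atp6v1a at chr16:44139260-44139409 and Ctsd at chr7:142387828-142387977, and the motif begins 132 and 99 bases before the start. A match is a description of these letters, not of binding.
Atp6v1a: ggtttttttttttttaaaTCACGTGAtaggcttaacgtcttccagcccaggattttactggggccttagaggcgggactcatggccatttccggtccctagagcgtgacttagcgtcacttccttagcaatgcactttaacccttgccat
Ctsd: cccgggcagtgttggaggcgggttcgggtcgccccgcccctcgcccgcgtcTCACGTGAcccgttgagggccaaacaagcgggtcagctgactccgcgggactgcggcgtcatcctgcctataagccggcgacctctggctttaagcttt
Atp6v1a, shown with this window, had 193 and 195 CPM in CKO NOX_6_18, 183 and 191 in CKO vehicle, 193 and 196 in fl/fl NOX_6_18 and 313 and 329 in fl/fl vehicle (0.77 ± 0.08, adjusted p = 0.000239). Tfeb and Tfe3, which encode factors that bind this element, had interactions of 0.59 (adjusted p = 0.261) and 0.33 (adjusted p = 0.0594), and Mitf, of the same family, was called higher at 0.79 (adjusted p = 0.00695).

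Of 12 PPARγ targets 7 were called higher and 2 lower (median 0.48), beside 6.71% and 18.6% of all genes tested. Those called higher included Lpl and Cd36, a fatty acid scavenger receptor (0.83 ± 0.06, adjusted p = 1.6e-05). Among liver X receptor targets and other genes of cholesterol efflux 5 of 14 were higher and 1 lower (median 0.23). Soat1, which esterifies cholesterol, had 87.1 and 87.2 CPM in CKO NOX_6_18, 90.6 and 87.1 in CKO vehicle, 80.6 and 81.5 in fl/fl NOX_6_18 and 149 and 146 in fl/fl vehicle (0.84 ± 0.09, adjusted p = 0.00025). Abca1, the cholesterol exporter, gave 0.23 ± 0.14 (adjusted p = 0.292), with overlapping groups.

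**Figure D3:**
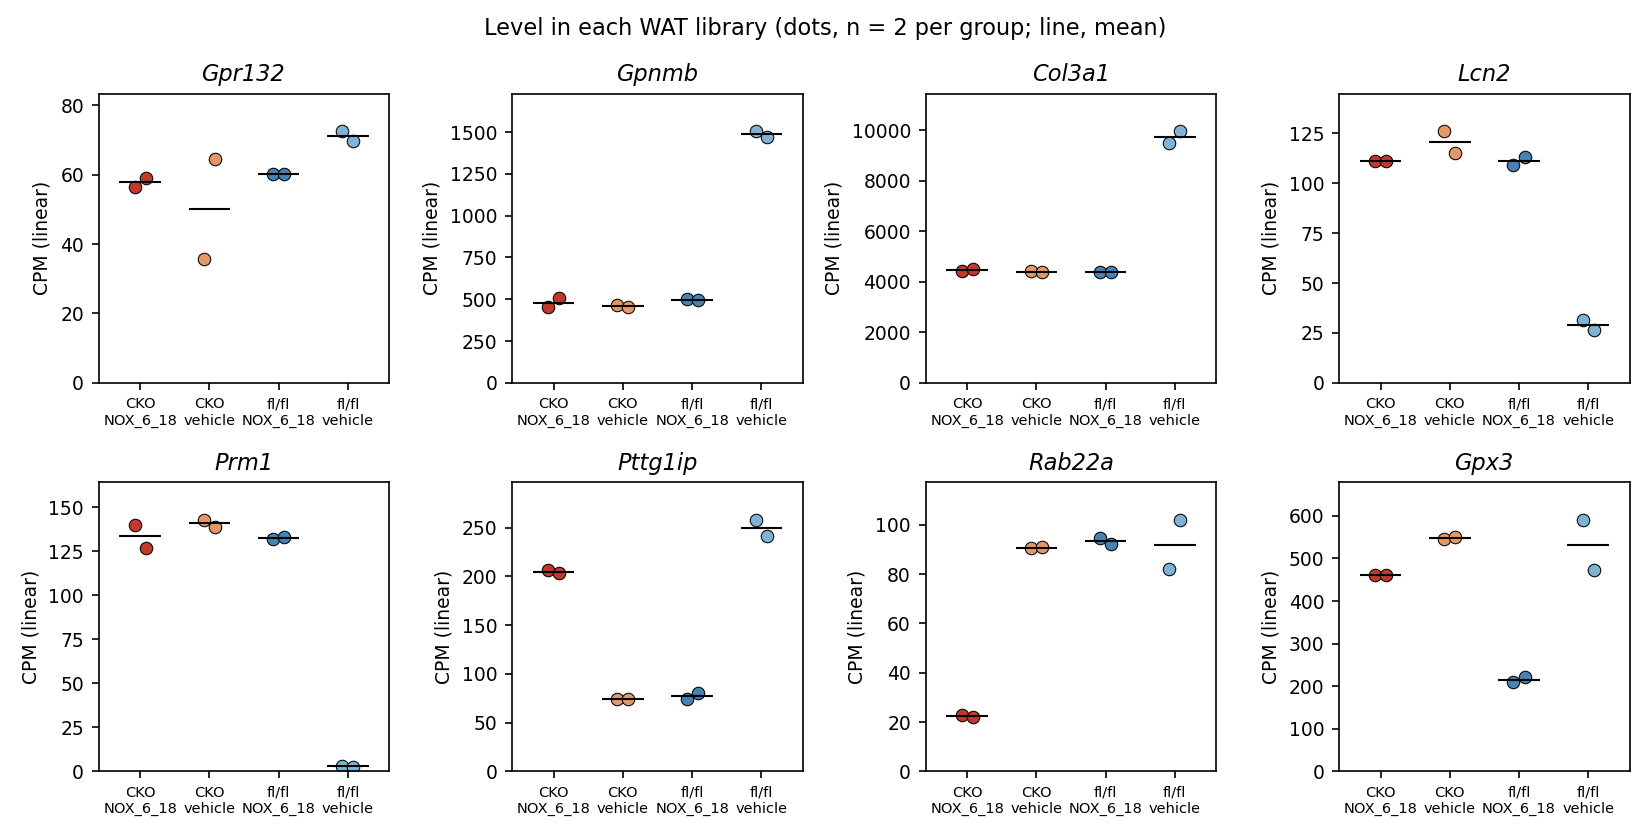
CPM (linear axis from 0) of 8 genes in each WAT library (dots; 2 per group) with the group mean (line), groups in the order CKO NOX_6_18, CKO vehicle, fl/fl NOX_6_18, fl/fl vehicle. In Gpnmb, Col3a1, Lcn2 and Prm1 the fl/fl vehicle pair stands apart, while Pttg1ip is high in CKO NOX_6_18 and fl/fl vehicle, Rab22a is low in CKO NOX_6_18 alone, at 23.0 and 22.2 CPM, and Gpx3 is low in fl/fl NOX_6_18.

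Of 24 fibrosis and extracellular matrix genes 23 were called higher and 0 lower, with a median of 0.77, 0.88 above all genes and 0.54 above them with GC and length trends removed; Thbs1, a matricellular protein, was the exception (0.07, adjusted p = 0.617). Col3a1, a fibrillar collagen, had 4428 and 4509 CPM in CKO NOX_6_18, 4415 and 4400 in CKO vehicle, 4410 and 4410 in fl/fl NOX_6_18 and 9489 and 9963 in fl/fl vehicle (1.16 ± 0.05, adjusted p = 1.03e-06). The 6 libraries were nearly level and fl/fl vehicle stood far above. Mmp3, stromelysin 1, had 11.4 and 13.7 CPM in CKO NOX_6_18, 13.8 and 10.9 in CKO vehicle, 12.4 and 10.5 in fl/fl NOX_6_18 and 43.0 and 40.4 in fl/fl vehicle (1.89 ± 0.22, adjusted p = 0.000418), and was among the 10 named genes with the highest interaction.

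Of 15 endothelial markers 12 were called higher and 0 lower (median 0.47), among them Cdh5, which encodes VE-cadherin (0.65 ± 0.08, adjusted p = 0.000526). Progenitor and fibroblast markers gave 4 of 13 higher and 1 lower, with Pdgfrb, a receptor of perivascular cells, at 1.09 ± 0.11 (adjusted p = 0.00018). Mast cell markers gave 5 of 10 higher (median 0.76), with the tryptase Tpsb2 at 0.81 ± 0.12 (adjusted p = 0.00127). Summed over each list, lipid-associated and pan-macrophage, matrix, endothelial and mast cell genes thus took a larger share of counts in the same 2 fl/fl vehicle libraries. The inflammatory cytokine and chemokine list overlapped, at 3600 and 4085 CPM in fl/fl vehicle and 3307 to 3606 in the 6 other libraries. The part of one list in the result of another was not tested.

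Adipocyte markers gave 2 of 17 higher and 4 lower, beside 6.71% and 18.6% of all genes tested. Their median was -0.38, or 0.11 with GC and length trends removed, where the median of all genes was 0.41. Dgat2, which makes triglyceride, had 37.2 and 38.5 CPM in CKO NOX_6_18, 37.9 and 40.8 in CKO vehicle, 35.4 and 39.6 in fl/fl NOX_6_18 and 17.1 and 14.5 in fl/fl vehicle (-1.31 ± 0.16, adjusted p = 0.000487). Retn, which encodes resistin, was lower by the same contrast (-1.25 ± 0.22, adjusted p = 0.0043), while Lep, which encodes leptin, was higher (0.63 ± 0.19, adjusted p = 0.0471). Adipoq, which encodes adiponectin, lay at 5.74 to 12.4 CPM over all 8 libraries and did not pass (-0.70, adjusted p = 0.108).

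Neutrophil markers gave 4 of 10 lower and 0 higher, with a median of -1.56, or 2 lower and -0.29 with GC and length trends removed. Lcn2, a neutrophil granule siderophore carrier also made by epithelia, had 111 and 111 CPM in CKO NOX_6_18, 126 and 115 in CKO vehicle, 109 and 113 in fl/fl NOX_6_18 and 31.6 and 26.5 in fl/fl vehicle (-2.06 ± 0.14, adjusted p = 1.42e-05). Ltf, lactoferrin, gave -2.50 ± 0.18 (adjusted p = 2.54e-05), but S100a8 and S100a9, calcium-binding proteins abundant in neutrophils, did not pass (-1.51 and -1.21, adjusted p of 0.0931 and 0.0906). Of T and NK cell markers 1 of 14 was lower (median -0.53, or 0.39 with GC and length trends removed), and of B and plasma cell markers 1 of 10 was higher (median 0.23). Of all genes tested 6.71% were called higher and 18.6% lower, so the T, NK, B and plasma cell counts lay near or below these shares. Erythroid markers gave 6 of 9 lower and 1 higher, with a median of -1.24, or 3 lower and -0.28 with GC and length trends removed, and with Alas2, the heme synthesis enzyme of red cell precursors, at -1.48 ± 0.12 (adjusted p = 3.9e-05).

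Spermatocyte, Leydig cell and spermatid genes had the lowest medians of the 37 lists. All 16 spermatid genes, 14 of 15 spermatocyte genes, 7 of 8 Leydig cell genes, 4 of 9 Sertoli cell genes and 13 of 15 epididymal genes were called lower, with medians of -5.01, -5.99, -5.50, -0.95 and -1.66 in that order, and 1 epididymal gene was called higher. The counts were 16, 14, 6, 1 and 7 lower with GC and length trends removed, with medians of -3.92, -5.09, -4.47, -0.17 and -0.61. Of all genes tested 18.6% were called lower. Prm1, the protamine that packs sperm DNA, had 140 and 127 CPM in CKO NOX_6_18, 143 and 139 in CKO vehicle, 132 and 133 in fl/fl NOX_6_18 and 2.99 and 2.60 in fl/fl vehicle (-5.64 ± 0.13, adjusted p = 9.24e-08). Summed spermatid genes were at 1342 to 1493 CPM over the 6 libraries and 90.5 and 95.7 CPM in fl/fl vehicle. Insl3, a hormone of Leydig cells, had 171 and 191 CPM in CKO NOX_6_18, 216 and 200 in CKO vehicle, 190 and 200 in fl/fl NOX_6_18 and 2.06 and 1.20 in fl/fl vehicle (-7.12 ± 0.26, adjusted p = 5.7e-07).

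In CKO the median change of these genes with NOX_6_18 was -0.07 for spermatid genes and 0.01 for Leydig cell genes. All 10 named genes with the lowest interaction were at 0 counts in the whole fl/fl vehicle pair, so that only bounds can be given. The lowest, Ldhal6b, a lactate dehydrogenase-like gene, was uneven among the others, at 20.5 and 12.3 CPM in CKO NOX_6_18, 70.3 and 17.8 in CKO vehicle and 45.3 and 21.6 in fl/fl NOX_6_18. Boll, a meiotic RNA-binding protein, had 14.4 and 13.5 CPM in CKO NOX_6_18, 12.3 and 14.3 in CKO vehicle and 12.9 and 14.8 in fl/fl NOX_6_18. It was at least 438-fold higher in fl/fl NOX_6_18 than in fl/fl vehicle, against a floor of 3 counts over the fl/fl vehicle pair. Mdh1b and Prss21, a serine protease of the testis, were at least 479-fold and 272-fold higher in the same comparison. The cyclic AMP response element TGACGTCA, read by a factor that drives protamine genes, stood in 0 of 14 spermatid, 0 of 13 spermatocyte and 0 of 6 Leydig promoter windows, beside 2.03% of all genes. With so few genes and so low a share, 0 matches does not set these lists apart. Only these exact letters were searched, so other forms of the element were not counted.

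Keratin and epithelial junction genes were called lower in 12 of 12 (median -1.44), or in 7 (median -0.82) with GC and length trends removed, with Krt5, a basal keratin, at -1.89 ± 0.12 (adjusted p = 1.08e-05). Hepatocyte markers were lower in 8 of 20 and higher in 1, with a median of -1.93, or lower in 5 with a median of -1.0 with GC and length trends removed. Alb, albumin, had 28.6 and 31.0 CPM in CKO NOX_6_18, 30.7 and 28.9 in CKO vehicle, 28.2 and 33.4 in fl/fl NOX_6_18 and 5.50 and 4.94 in fl/fl vehicle (-2.56 ± 0.17, adjusted p = 1.51e-05). Their sum went the other way, at 739 to 780 CPM in the 6 libraries and 868 and 929 in fl/fl vehicle, and Trf, transferrin, which made up most of that sum at 657 to 705 CPM in the 6 and 843 and 901 in fl/fl vehicle, was called higher (0.34 ± 0.08, adjusted p = 0.014). Most markers of testis, epididymis and keratinized epithelium were thus low in the same 2 libraries in which most lipid-associated macrophage and matrix genes were high. The part of tissue composition in these interactions was not tested.

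**Figure D4:**
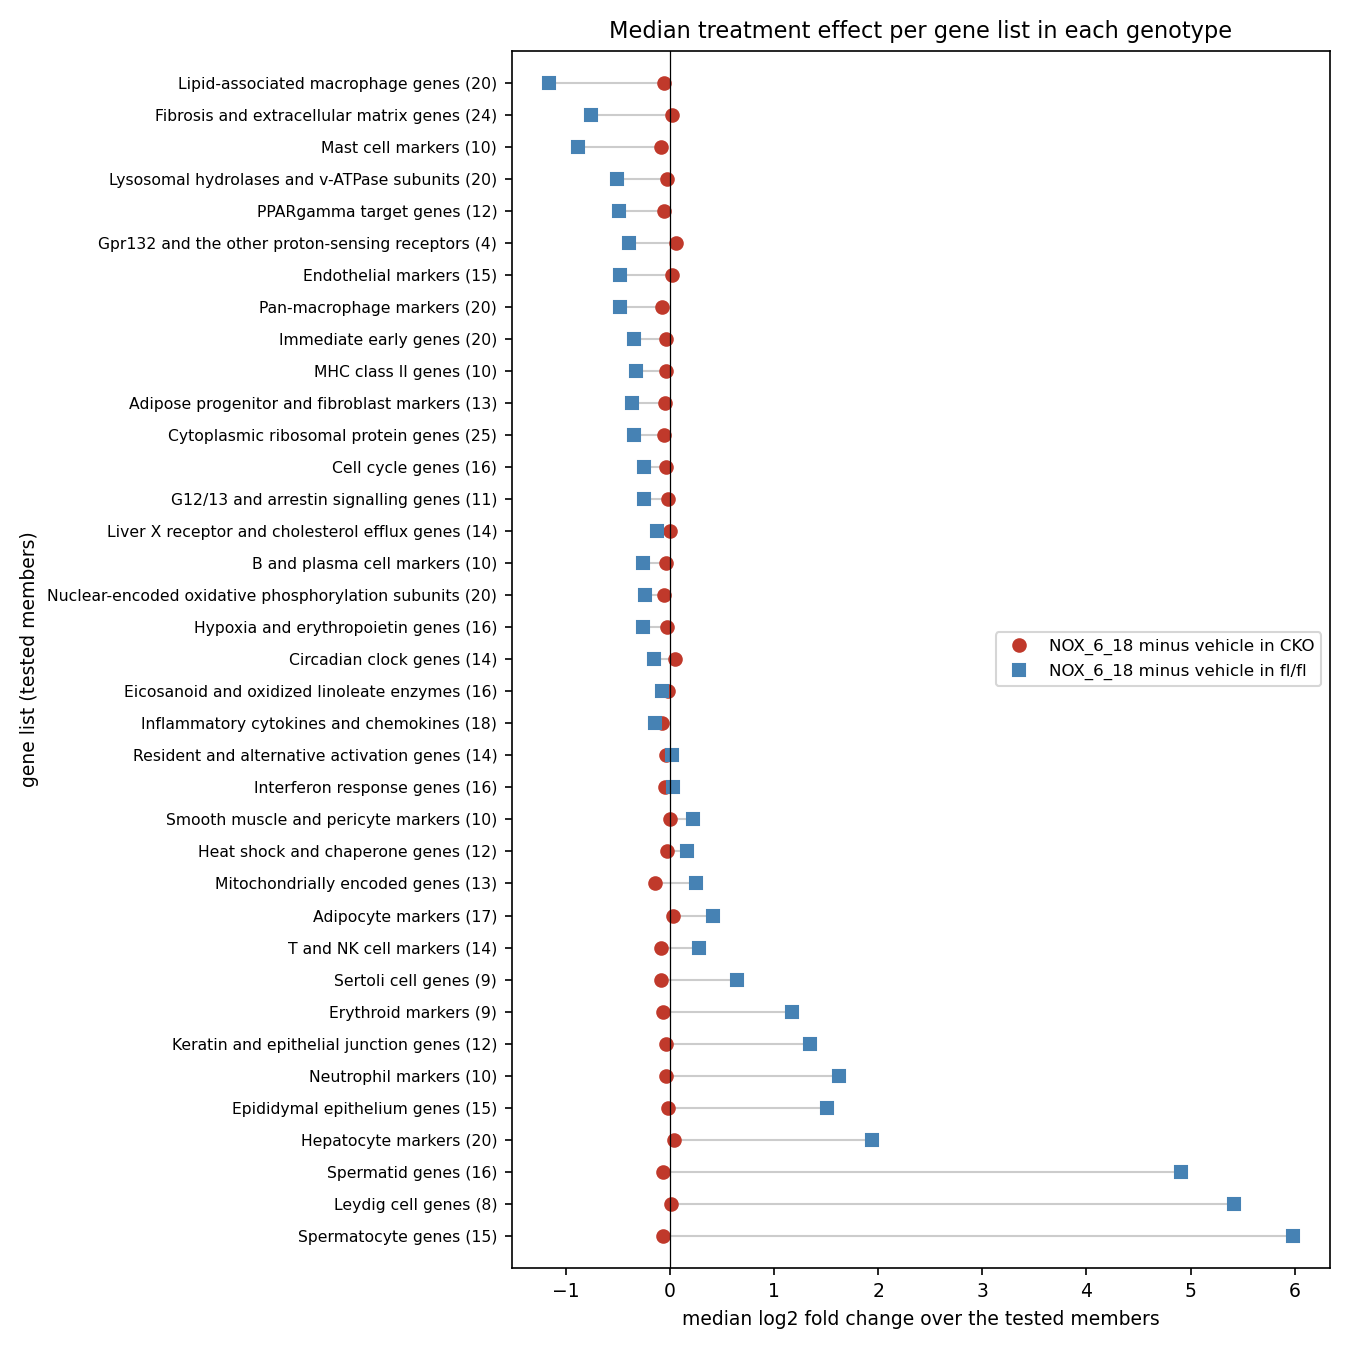
Median log2 fold change of NOX_6_18 over vehicle in CKO (circles) and in fl/fl (squares) over the tested members of 37 gene lists, ordered by median interaction. The CKO medians lie close to 0 in every list (between -0.14 and 0.06), while the fl/fl medians run from -1.16 for lipid-associated macrophage genes to 5.98 for spermatocyte genes.

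Immediate early genes were called higher in 11 of 20 and lower in 1 (median 0.38), with Fos at 2511 to 2634 CPM in the 6 libraries and 3993 and 3732 in fl/fl vehicle (0.55 ± 0.06, adjusted p = 0.000215). Heat shock and chaperone genes were lower in 5 of 12 (median -0.24, or 0.32 with GC and length trends removed), with the inducible chaperone Hspa1b at 265 to 288 CPM in the 6 and 147 and 156 in fl/fl vehicle (-0.93 ± 0.09, adjusted p = 0.000136). Hypoxia genes were higher in 3 of 16 (median 0.18), including Epas1, which encodes HIF-2α (0.59 ± 0.08, adjusted p = 0.000885). Interferon response genes were higher in 1 of 16 and lower in 2 (median -0.06, or 0.57 with GC and length trends removed). Cell cycle genes were higher in 1 of 16 and lower in 3 (median 0.25). The counts of both lists lay near the shares of all genes tested, 6.71% higher and 18.6% lower. Clock genes were higher in 3 of 14 and lower in 2 (median 0.15, or -0.02 with library totals only).

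Mitochondrially encoded genes were lower in 7 of 13, with a median of -0.37 that was 1.03 with GC and length trends removed, and 0.62 above all genes there, so their direction rests on the scaling. Ribosomal protein genes were higher in 3 of 25 (median 0.26), and nuclear-encoded oxidative phosphorylation genes in 1 of 20 (median 0.19). These were, with GC and length trends removed, 24 of 25 (median 1.13) and 19 of 20 (median 1.18), and with library totals only 0 of each. With GC and length trends removed, 8408 of all genes were called higher, against 1737 in the main fit, and other lists gained such calls too. They were higher in 8 of 11 genes of G12/13 and arrestin signalling, 12 of 16 oxidized lipid enzymes, 18 of 20 pan-macrophage markers, 9 of 10 MHC class II genes and 11 of 14 genes of cholesterol efflux. They were higher in 10 of 13 progenitor, 5 of 10 B cell and 8 of 10 mast cell markers, and in 17 of 20 immediate early, 12 of 16 hypoxia, 11 of 16 interferon and 11 of 16 cell cycle genes. With library totals only, the endothelial count was 6 of 15 and the immediate early count 7 of 20. Smooth muscle and pericyte markers gave 2 of 10 higher and 2 lower, beside 6.71% and 18.6% of all genes tested. Their median was -0.20, or 0.23 with GC and length trends removed.

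A small set of genes had an interaction that the fl/fl vehicle libraries did not set alone. Of all 6547 calls, 32 lay farthest from the other groups in CKO NOX_6_18, 75 in CKO vehicle and 62 in fl/fl NOX_6_18. Over all 25871 genes tested these counts were 2624, 3071 and 2593, so such genes were rarer among the calls. Pttg1ip, which encodes a securin-binding protein (ENSMUSG00000009291, GRCm38 chr10:77581720-77598732, plus strand), had 206 and 203 CPM in CKO NOX_6_18, 73.8 and 74.1 in CKO vehicle, 73.8 and 80.2 in fl/fl NOX_6_18 and 258 and 241 in fl/fl vehicle. The groups fell into a high and a low pair that crossed genotype and treatment. NOX_6_18 minus vehicle was 1.47 ± 0.07 in CKO (adjusted p = 0.000689) and -1.70 ± 0.07 in fl/fl (adjusted p = 6.74e-07), and the interaction was 3.16 ± 0.10 (adjusted p = 3.35e-07). Of all interaction calls, 2 passed in both treatment contrasts, and Pttg1ip and Pcdhb19 were those 2 genes.

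Pcdhb19, a clustered protocadherin (ENSMUSG00000043313), had 0 and 0 CPM in CKO NOX_6_18, 2.62 and 3.54 in CKO vehicle, 3.01 and 3.85 in fl/fl NOX_6_18 and 0 and 0 in fl/fl vehicle, the mirror of Pttg1ip. It was at least 121-fold lower in CKO NOX_6_18 than in CKO vehicle (adjusted p = 0.0445) and at least 108-fold higher in fl/fl NOX_6_18 than in fl/fl vehicle (adjusted p = 0.000108), each against a floor of 3 counts over the pair at 0. Its interaction passed (adjusted p = 3.11e-05), with a fitted value that depends on the prior count. Protocadherins of this cluster are related copies, so its counts may be uncertain.

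Rab22a, a GTPase of early endosomes (ENSMUSG00000027519, GRCm38 chr2:173659760-173707343, plus strand), had 23.0 and 22.2 CPM in CKO NOX_6_18, 90.4 and 90.8 in CKO vehicle, 94.5 and 92.2 in fl/fl NOX_6_18 and 81.9 and 102 in fl/fl vehicle. CKO NOX_6_18 alone was low. NOX_6_18 minus vehicle was -2.0 ± 0.11 in CKO (adjusted p = 0.000809) and 0.02 ± 0.10 in fl/fl (adjusted p = 0.891), for an interaction of -2.03 ± 0.15 (adjusted p = 2.54e-05). With all 16 libraries in the fit the interaction was -2.05 and did not pass (adjusted p = 0.117). Galnt16, a glycosyltransferase, completed the 4 genes called for NOX_6_18 in CKO (-1.01 ± 0.10, adjusted p = 0.0445), but it fell in fl/fl too (-0.66 ± 0.10, adjusted p = 0.00108), and its interaction of -0.35 ± 0.14 did not pass (adjusted p = 0.104).

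Fitted on the 6 libraries without fl/fl vehicle, a fit added after the data had been seen, NOX_6_18 changed 12 genes in CKO, the same 4 among them. Beside Apoe these included Ccnc, a cyclin of the transcriptional Mediator complex (-1.26 ± 0.12, adjusted p = 0.0289), Vav2, a guanine nucleotide exchange factor (-0.83 ± 0.08, adjusted p = 0.0289), Spcs1, a signal peptidase subunit (-0.74 ± 0.07, adjusted p = 0.0289), and Apc, a scaffold that restrains Wnt signalling (1.66 ± 0.15, adjusted p = 0.0263). The smallest adjusted p was that of Zbed6 (4.79 ± 0.08, adjusted p = 1.88e-06), a transposon-derived transcription factor gene that lies within Zc3h11a, so reads of these genes may not be told apart. Zbed6 had 96.4 and 103 CPM in CKO NOX_6_18, 3.71 and 3.49 in CKO vehicle, 84.9 and 86.3 in fl/fl NOX_6_18 and 59.6 and 2.56 in fl/fl vehicle. The wide split of the fl/fl vehicle pair stood beside an interaction of 3.32 that did not pass (adjusted p = 0.126).

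Other genes stood apart in fl/fl NOX_6_18 or CKO vehicle; Gpx3 and Abi1 were chosen after their values were seen, as were the genes named from the fit of 6 libraries. Gpx3, a secreted glutathione peroxidase, had 461 and 462 CPM in CKO NOX_6_18, 545 and 550 in CKO vehicle, 210 and 221 in fl/fl NOX_6_18 and 591 and 474 in fl/fl vehicle (1.06 ± 0.13, adjusted p = 0.000617). Abi1, a regulator of actin assembly, had 133 and 142 CPM in CKO NOX_6_18, 147 and 143 in CKO vehicle, 97.4 and 92.6 in fl/fl NOX_6_18 and 197 and 190 in fl/fl vehicle (0.95 ± 0.10, adjusted p = 0.000167). In both the fl/fl NOX_6_18 pair was lowest of all. Mmgt2, a membrane magnesium transporter, was lowest in CKO vehicle, at 5.84 and 5.78 CPM in CKO NOX_6_18, 1.90 and 1.72 in CKO vehicle, 6.72 and 4.01 in fl/fl NOX_6_18 and 8.97 and 9.46 in fl/fl vehicle (2.46 ± 0.35, adjusted p = 0.00123).

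Several of the 10 named genes with the highest interaction rested on uneven pairs. Fam177a had 38.2 and 33.3 CPM in CKO NOX_6_18, 0 and 38.3 in CKO vehicle, 0 and 0 in fl/fl NOX_6_18 and 33.7 and 35.9 in fl/fl vehicle. The CKO vehicle libraries thus disagreed completely, and its call (adjusted p = 0.0442) was lost without any 1 of 6 libraries (adjusted p up to 0.121). Calls for Zfp260, Lpp and Ski were lost without any 1 of 3, 4 and 2 libraries. Vsig8 and Epo kept their calls whichever single library was left out. Vsig8, an immunoglobulin-domain membrane protein, lay at 8.45 to 10.4 CPM in the 6 libraries and 34.3 and 32.0 in fl/fl vehicle (1.87 ± 0.16, adjusted p = 7.87e-05), and Epo, erythropoietin, at 0 to 0.326 CPM in the 6 and 9.83 and 11.4 in fl/fl vehicle (6.73 ± 1.21, adjusted p = 0.00451), but the fitted Epo value was 12.24 without fl/fl NOX_6_18 replicate 2 and 5.80 without fl/fl NOX_6_18 replicate 1, and lay between these without either CKO vehicle replicate, where it also moved by over 1.5 times. With all 16 libraries in the fit Epo did not pass (adjusted p = 0.118).

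The same contrast in liver passed for 478 of 19515 genes (2.45%), and the difference between the WAT and the liver interaction passed for 1788 of 26751 genes (6.68%), 816 higher (3.05%) and 972 lower (3.63%) in WAT. Extracellular matrix genes differed in 16 of 24, all higher in WAT, and lysosomal genes in 11 of 20, all higher in WAT. Lipid-associated macrophage genes were higher in WAT in 11 of 20 and lower in 1. For Gpnmb the interaction was 1.64 in WAT and 3.03 in liver (adjusted p = 0.0201), and the difference of -1.39 did not pass (adjusted p = 0.135). For Col3a1 it was 1.16 in WAT and 0.04 in liver, and the difference of 1.11 passed (adjusted p = 2.24e-05). For Gpr132 it was 0.45 in WAT and 1.79 in liver, where it passed (adjusted p = 0.0344), and the difference of -1.35 did not pass (adjusted p = 0.125).

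Exons of several named genes overlap those of another gene, so their counts are uncertain. Among them were Gna12, Gna13, Rhoa, Tbxas1, Cxcl10, Il1b, Ctsb, Ctsd, Hexa, Pltp, Col3a1, Alas2, Insl3, Krt5, Ldhal6b, Epo, Lpp, Rab22a, Galnt16, Ccnc, Spcs1 and Abi1.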

How the data were processed

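RNA-seq of WAT covered 4 groups of 2 libraries; titles gave groups and replicate numbers. For every library the authors deposited a table of unnormalized gene counts. Per the labels' protocols, the tissue went into liquid nitrogen, RNA came from a TRIzol extraction and the libraries from a KAPA stranded kit. The submitters' processing notes name HISAT, featureCounts 1.5.0, DESeq 1.8.3 and GRCm38, with no role. The annotation release and the strand setting used for counting were not stated, so overlapping genes and near-identical copies have uncertain counts. Tables held 55421 genes, and GENCODE M21 gave a symbol for 55240 (99.7%).

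All 8 libraries shared 1 edgeR 4.0.16 quasi-likelihood fit (R 4.3.3) with TMM scaling, filterByExpr, 1 coefficient per group and Benjamini-Hochberg adjustment at 0.05; the fit was tested on simulated data. TMM factors were 0.913 and 0.921 for fl/fl vehicle and 1.03 for the others. The standard error (SE) was derived from the log2 fold change and the F statistic. CPM are TMM-scaled. Floors of 3 counts over a group cover counting error only. Alternatives were RLE size factors, library totals alone, no filter, a stricter filter (50 counts in 2 libraries), DESeq2 1.42.0, limma-voom 3.58.1, the replicate number as a block, all 16 libraries, a 2-fold minimum, removal of GC and length trends, and each library left out. A fit without the fl/fl vehicle group was added after seeing the data.

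Named genes were Gpr132, the 10 highest and 10 lowest called genes reaching a group mean of 5 CPM (no predicted genes, pseudogenes, receptor segments, Xist or Y-linked genes), genes called for NOX_6_18 in CKO, and up to 4 called members per list or, with none called, the 2 most abundant; other genes are list members or are marked as chosen after their values were seen. The 37 lists (538 genes, 534 tested), the comparison and the members were chosen with earlier results of these data known. Lists received no test of their own. Promoter sequences are from RefSeq. Results for some items are not reported here.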

Additional observations from a re-analysis of the deposited data

Results flagged for a closer look

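The groups of 2 libraries allow no check for a library far from its group. The interaction differed between WAT and liver, by a test of that difference over all 16 libraries (edgeR, adjusted p under 0.05), for 76 of the 154 named genes: 43 lay higher in WAT and 33 lower. Of all genes tested 6.68% differed, 3.05% higher and 3.63% lower. Of the named genes 152 were called in the WAT interaction, and most were chosen by it. That interaction enters the difference, so a larger share among them was favoured in advance. Values are the WAT interaction minus the liver interaction on the log2 scale.

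Macrophage and lysosomal genes lay higher in WAT: Ctsb (1.12), Lipa (1.21), Ctsd (1.12), Adgre1 (0.75), Lyz2 (0.36), Cd68 (0.83), Mrc1 (0.55), Atp6v1b2 (1.19), Atp6v1a (0.78), Gusb (0.74) and Hexa (0.78). So did lipid genes, with Soat1 (1.01), Abcg1 (0.52), Pltp (0.80), Lpl (0.75), Cd36 (0.91), Plin2 (1.03), Fabp4 (0.68), Cebpa (0.96), Pla2g15 (0.76) and Tbxas1 (0.78). Matrix, vascular and progenitor genes were Col3a1 (1.11), Mmp2 (1.44), Postn (1.34), Col1a2 (1.16), Mmp3 (5.67), Pdgfrb (0.86), Dpt (1.42), Fap (3.09), Cdh5 (0.60), Pecam1 (0.52), Tie1 (0.53), Rgs5 (0.79) and Notch3 (0.93). The rest higher in WAT were Pttg1ip (4.36), Ngp (4.39), Gna12 (0.58), Gna13 (0.54), Rhoa (0.57), Klf6 (0.79), Dusp1 (0.65), Epas1 (0.66) and Pgk1 (0.65). Mmp3 had the opposite sign in liver, at -3.76 (adjusted p = 0.0308).

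Genes of germ, Leydig, Sertoli and epithelial cells lay lower in WAT: Ddx4 (-11.88), Gapdhs (-4.09), Cyp17a1 (-4.46), Insl3 (-6.63), Aard (-6.71), Sox9 (-1.43), Clu (-0.91), Cdh1 (-2.06) and Cldn4 (-2.95). Blood and hepatocyte genes were Alas2 (-2.12), Hba-a1 (-2.18), Hba-a2 (-2.05), Hbb-bt (-2.09), Alb (-2.72), Fgg (-3.00), Fga (-1.94), Lcn2 (-1.05) and Ltf (-1.84). The mast cell gene Tpsb2 (-0.72) also lay lower in this difference, although its WAT interaction was itself called higher. Lcn2 and Ltf do not stand for the neutrophil list, whose median interaction was -1.56 in WAT and -3.55 in liver. Of its 10 tested members 3 lay higher in WAT, Ngp among them, and 2 lower. The rest lower in WAT were Pcdhb19 (-18.76), Alox15 (-1.44), Cxcl10 (-1.16), Dgat2 (-1.20), Cnn1 (-0.82), Ifit1 (-0.96), Aurka (-1.55), Plk1 (-1.31), Hspa1b (-1.86), Hspa1a (-1.51), mt-Nd4l (-0.73), mt-Nd5 (-0.47), mt-Cytb (-0.63) and mt-Nd4 (-0.59). The fitted values of Pcdhb19 and Ddx4 depend on the prior count, and Ddx4 did not pass the filter on low counts in the fit of liver alone. For Lcn2 the liver interaction was itself lower (-1.02, adjusted p = 0.018), and for Alas2 it was higher (0.63, adjusted p = 0.00501).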

How the results depend on the processing

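The interaction count of 6547 was 12278 with GC and length trends removed and 5972 with the replicate block; leaving out 1 library gave 4581 to 6790. Counts for NOX_6_18 in CKO (4) were 46 with DESeq2, 2 with the replicate block, 2 with all 16 libraries, 12 without fl/fl vehicle and 3 to 13 with 1 library left out (13 without CKO NOX_6_18 replicate 1 or either fl/fl vehicle replicate, 8 without CKO vehicle replicate 2). Counts for CKO against fl/fl on NOX_6_18 (9) were 46, 5, 2, 13 and 5 to 23 in the same order, with 23 without fl/fl NOX_6_18 replicate 1, 17 without CKO NOX_6_18 replicate 1, 16 and 15 without fl/fl vehicle replicates 1 and 2, and 5 without CKO NOX_6_18 replicate 2 or either CKO vehicle replicate. In these contrasts edgeR gave 897 and 618 genes at an unadjusted p under 0.05. NOX_6_18 in fl/fl (9784) gave 5331 at a 2-fold minimum, 15085 with GC and length trends removed and 6865 to 9439 with 1 library left out; CKO against fl/fl on vehicle (9529) gave 5290, 15045 and 6972 to 8919. In both of these contrasts most calls were higher in the main fit and lower with GC and length trends removed, so their direction rests on the scaling. The tissue difference (1788) gave 3313 with DESeq2, 3369 with limma-voom and 1138 at a 2-fold minimum. Gpr132 was 1.08 with GC and length trends removed and 0.08 to 0.93 with 1 library left out.

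With GC and length trends removed, the interaction turned positive for Arg1 (0.19), Cxcl10 (0.08), Il1b (0.80), Cfd (0.11), Hbb-bt (0.02), Cldn11 (0.16), Acta2 (0.36), Ifit1 (0.43), Isg15 (0.72), Ccnb2 (0.61), Dnajb1 (0.16), mt-Nd4l (0.47), mt-Nd5 (0.94), mt-Cytb (1.07) and mt-Nd4 (0.87). That fit moved the median of all genes by 0.52; further causes were not tested. Of 154 named genes 152 were called in the interaction, and 33 of these lost their call without at least 1 library.

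Same-numbered libraries of different groups had correlations of deviations of -0.01 to 0.02, so the numbers do not pair them. The interaction cannot be estimated without both fl/fl vehicle libraries. With 2 libraries a group, differences below the spread of these pairs were not detectable.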
